A study of Homo sapiens with 4 samples.

Results

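FOLH1 and 7 enzymes and carriers of folate metabolism (FOLR1, FPGS, GGH, SHMT1, MTHFD1, MTHFD1L and TYMS) were followed through an RNA sequencing experiment on STAT3 knockdown. The 8 genes are 8 of the 27452 genes in the tables and were taken by symbol. They had been chosen with earlier results of the same comparison in view, FOLH1 by its large difference between the groups. Their differences between the groups are therefore given as a description. Where the threshold of all genes is applied to the 8, the outcome describes the fit and is not evidence of a change. All 8 passed the filter on low counts, so none is missing from what follows. FOLH1 passed that filter only through the group in which it was high.

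The study asked which other genes respond when STAT3, a transcription factor switched on by cytokine receptors, is lowered. Cells labelled HepG2, an established human hepatoma line, carried either a control short hairpin RNA (Ctrl shRNA, 2 libraries) or a hairpin against STAT3 (STAT3 shRNA, 2 libraries), and were grown in medium with serum. Total reads over genes were 19283150 and 20133064 with Ctrl shRNA and 25862027 and 17694642 with STAT3 shRNA. Whether the libraries within a group derive from separate cultures, clones or hairpins is not stated in the labels, so p-values reflect only the variation among these 4 libraries, possibly technical. Off-target action of the hairpin cannot be told apart from STAT3 loss.

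Folate carries single carbon units for the synthesis of purines and thymidylate and for the remethylation of homocysteine to methionine. Dietary folate bears a chain of glutamates that must be trimmed before uptake, and inside the cell FPGS adds such a chain again, which retains folate, while GGH removes it. FOLH1, known as prostate-specific membrane antigen and glutamate carboxypeptidase II, is a surface peptidase that trims glutamates from folate in the small intestine and cleaves N-acetylaspartylglutamate in the nervous system. The liver is the main folate store of the body and holds several folate enzymes that most other tissues lack.

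Checks of the labels came first. STAT3 was at 245.03 and 244.32 CPM (read counts scaled to library size with TMM factors) with Ctrl shRNA and at 34.7 and 36.1 CPM with STAT3 shRNA. The log2 fold change was -2.79 ± 0.09 (SE; adjusted p = 3.28e-07, edgeR quasi-likelihood test with Benjamini-Hochberg adjustment, two-sided), so STAT3 was low in the libraries labelled as its knockdown. The hepatocyte markers went against the tissue of the cell line label. ALB, the serum albumin gene, had 0 and 0 reads with Ctrl shRNA and 0 and 3 reads with STAT3 shRNA, and APOA1, a plasma lipoprotein gene, had 0, 0, 1 and 2 reads in the same order. TF, the transferrin gene, was at 2.02 and 2.14 CPM with Ctrl shRNA and 0.900 and 0.435 CPM with STAT3 shRNA. HNF4A, a transcription factor of hepatocytes, was at 1.27 and 1.78 CPM against 7.20 and 4.95 CPM. The other 6 markers on the list, APOB, TTR, SERPINA1, AFP, FGB and APOH, had no row in the tables. The summed CPM of the 4 hepatocyte markers with a row was 3.29 and 3.92 with Ctrl shRNA and 8.14 and 5.65 with STAT3 shRNA. Some folate and methyl group enzymes known from liver were also close to absence in all 4 libraries. Over these libraries ALDH1L1 had 1 read, FTCD 4, SARDH 2, GNMT 11, BHMT2 5 and GLDC 15. Other genes known from liver were detected. CBS was at 10.9 and 28.7 CPM with Ctrl shRNA and 10.7 and 9.08 CPM with STAT3 shRNA, and its copy CBSL held 347.9% as many reads. In the same order ABCC2 was at 124, 119, 110 and 104 CPM and TFR2 at 32.3, 35.6, 49.7 and 46.8 CPM. Because the hepatocyte markers were low or had no row, the cells are called cells labelled HepG2 here.

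FOLH1 (ENSG00000086205.18; GRCh38, chromosome 11, 49146635 to 49208670, minus strand) went from near absence to a middle level. The control libraries held 3 and 3 reads of it and the STAT3 shRNA libraries 430 and 321 reads. In CPM these are 0.159 and 0.157 against 16.1 and 17.4, so the groups lay far apart and the libraries of each group lay close together. With 6 reads in one group and 751 in the other, the ratio scaled for depth was 105.5, with an exact binomial 95% interval of 48.3 to 288.5 that covers counting error only. The fitted log2 fold change was 6.68 ± 0.27 (SE), the 32nd highest of the 15199 genes tested. FPKM is meant to give reads per gene length and library depth, though how the deposited values were computed is not given. On that scale FOLH1 was at 0.13 and 0.09 with Ctrl shRNA and 7.76 and 10.81 with STAT3 shRNA. Its mean FPKM stood at percentile 1.28 of the tested genes with Ctrl shRNA and at percentile 47.8 with STAT3 shRNA. A Ctrl shRNA library at 3 reads sits at the floor used here (3 reads, 0.157 to 0.159 CPM in these 2 libraries), so the size of the fold rests on few control reads. With the FPKM values the log2 difference was 3.20 with a pseudocount of 1 and 5.47 with a pseudocount of 0.1.

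Part of the reads of FOLH1 cannot be assigned to it with certainty. FOLH1B, a transcribed pseudogene on the same chromosome, matched 79.16% of the longest FOLH1 transcript at 98.74% identity, and it had no row in the tables, so its reads could not be added. Of 2132 coding bases of FOLH1 that align to FOLH1B, 27 differ. Windows of 50 bases along the FOLH1 transcript occurred unchanged in FOLH1B in 41.2% of cases, windows of 100 bases in 19.6% and windows of 150 bases in 12.6%. The stretch of FOLH1 below lies in exon 4 of 20 (GRCh38, chr11:49200297-49200356, minus strand, 5′ to 3′). It holds 3 of the differences, marked by capitals, the most found in any of 1070 coding windows of that length, whose median was 1. It is shown because reads across it can separate the pair of genes.
FOLH1: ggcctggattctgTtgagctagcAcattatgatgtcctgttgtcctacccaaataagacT
FOLH1B: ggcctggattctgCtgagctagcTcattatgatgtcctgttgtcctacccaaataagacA

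Genes near FOLH1 and its relatives were read next. Within 500 kb of FOLH1 the tables held 2 other protein-coding genes, and neither passed the filter. TRIM51GP had 0 and 0 reads with Ctrl shRNA and 10 and 4 reads with STAT3 shRNA, and TRIM49B had 0, 0, 1 and 0 reads. Of the relatives of FOLH1 by sequence, NAALAD2, a peptidase with the same substrate, was at 0.954 and 0.418 CPM against 0.638 and 0.272 CPM, and its groups overlapped. NAALADL1 and NAALADL2 had at most 6 reads in any library and were not tested. The transferrin receptors, which share the fold of FOLH1, both rose. TFRC rose from 856 and 707 CPM to 1072 and 1111 CPM, a log2 fold change of 0.48 ± 0.10 (SE; adjusted p = 0.006, edgeR), and TFR2 rose from 32.3 and 35.6 CPM to 49.7 and 46.8 CPM, a log2 fold change of 0.51 ± 0.10 (adjusted p = 0.005, edgeR). The call for TFR2 was lost without STAT3 shRNA library 1 (adjusted p = 0.0756) and with FPKM (0.0533 and 0.0532). These changes were far smaller than that of FOLH1.

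The 5 genes below followed the pattern of FOLH1 over the 4 libraries most closely, by the root mean square difference of log2(CPM + 0.5) centred on each gene's mean, among 12720 genes compared. They were KRT4, an epithelial keratin (difference 0.137), PAGE1, a member of a cancer-testis antigen family (0.172), PWP2, a factor of ribosome assembly (0.303), ENG, a co-receptor of the TGF-beta family (0.432), and FMOD, a matrix proteoglycan (0.446). KRT4 stood at 1.17 and 1.62 CPM with Ctrl shRNA and 51.9 and 52.9 CPM with STAT3 shRNA. PAGE1 stood at 2.65 and 3.61 CPM against 107.7 and 106.9 CPM. With 4 libraries in 2 groups, this measure mostly compares the size of the difference between the groups on that scale. The added 0.5 shrinks the difference of a gene near 0 in the controls, such as FOLH1. Fitted log2 fold changes were 5.23 for KRT4, 5.10 for PAGE1, 6.79 for PWP2, 4.28 for ENG and 6.19 for FMOD. That of FOLH1 was 6.68, so closeness here is not likeness of the fitted fold. PWP2 has a near-identical copy, FP565260.1, that held 396.9% as many reads, so its values are uncertain.

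Markers of other tissues in which FOLH1 is known were read beside it. Of 10 names on the prostate list 5 had a row, and their summed CPM was 22.2 and 24.8 with Ctrl shRNA and 26.3 and 25.98 with STAT3 shRNA. HOXB13, a prostate transcription factor, was at 13.2 and 14.6 CPM against 13.7 and 13.1 CPM, with overlap between the groups. The small intestine list had 6 genes with a row, and its sum fell from 1045 and 1409 CPM to 13.2 and 11.6 CPM. Nearly all of that sum was ALPI, the intestinal alkaline phosphatase, whose close paralogs can share reads with it, at 1045 and 1409 CPM against 8.03 and 6.41 CPM. MUC13, an epithelial mucin, moved the other way, from 0.053 and 0.052 CPM to 4.91 and 4.84 CPM, and VIL1, LCT, CDH17 and FABP6 had at most 4 reads in any library. The 6 endothelial markers with a row summed to 2.17 and 1.46 CPM against 1.39 and 2.28 CPM. Astrocyte markers were near 0 apart from SLC1A3, a glutamate transporter, at 55.0 and 44.9 CPM against 28.0 and 27.1 CPM. The part of any such cells in the FOLH1 result was not tested.

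**Figure D1:**
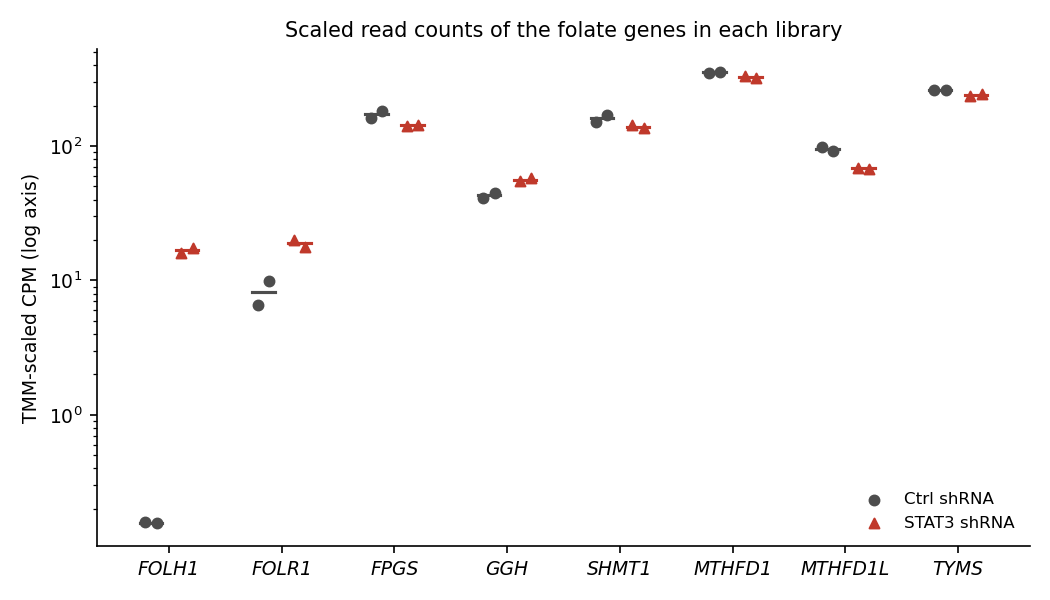
TMM-scaled CPM of the 8 genes (log axis) in the 2 Ctrl shRNA libraries (circles) and the 2 STAT3 shRNA libraries (triangles), with lines at the group means. FOLH1 moved from about 0.16 to between 16.1 and 17.4 CPM, FOLR1 and GGH also lay higher with STAT3 shRNA, and the other 5 lay lower.

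By the threshold used for all genes, an adjusted p under 0.05 in the edgeR test, 5 of the 8 genes passed, where 35.5% of the 15199 genes tested did. FOLH1, FOLR1 and GGH passed as higher, where 16.8% of all genes did, and FPGS and MTHFD1L as lower, where 18.7% did. The libraries of the groups did not overlap in CPM for any of the 8, as for 70.8% of all genes tested. Since the genes were chosen from this comparison, nothing is read from these counts. Nor is a pass or a failure to pass, here or below, evidence about any of the 8. Without STAT3 shRNA library 1 or without STAT3 shRNA library 2, 3 of the 8 passed (FOLH1, FOLR1 and MTHFD1L), so GGH and FPGS did not. With FPKM 3 passed as well (FOLH1, FOLR1 and GGH), so MTHFD1L and FPGS did not. Nor did FPGS pass without Ctrl shRNA library 2, under a GC offset or under upper-quartile scaling, and SHMT1 passed without Ctrl shRNA library 1.

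FOLR1, folate receptor alpha, takes up folate by endocytosis and is found on few normal epithelia. FOLR1 (ENSG00000110195.13; chromosome 11, 72189558 to 72196323, plus strand) had 123 and 188 reads with Ctrl shRNA and 537 and 326 reads with STAT3 shRNA, which are 6.52 and 9.83 CPM against 20.1 and 17.7 CPM. Both STAT3 shRNA libraries lay above both controls, and the controls differed from each other more than the knockdown libraries did. The log2 fold change was 1.21 ± 0.20 (SE), 2.32-fold higher. A pseudogene, AP000812.3, is 90.91% identical over 45.38% of the transcript and had no row.

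The other routes of folate into and out of the cell moved the opposite way or did not pass. Of 7 tested transporters besides FOLR1, 4 fell and 0 rose (edgeR, adjusted over all genes), where 18.7% and 16.8% of all genes tested did. The median log2 fold change was -0.45 against 0.02 over all genes tested. SLC19A1, the reduced folate carrier and the main route in most cells, fell from 72.9 and 77.1 CPM to 52.8 and 52.0 CPM (log2 fold change -0.52 ± 0.09, adjusted p = 0.002). SLC19A1 overlaps COL18A1, which held 23.5% as many reads. Its call was lost with an offset for GC content (-0.18, adjusted p = 0.077) and with FPKM (adjusted p = 0.211 at both pseudocounts). Among the efflux pumps, which export folates and antifolates along with many other compounds, ABCG2 fell from 62.3 and 55.8 CPM to 24.1 and 23.4 CPM (-1.31 ± 0.10) and ABCC4 from 151 and 140 CPM to 93.0 and 98.4 CPM (-0.61 ± 0.09, adjusted p = 0.001), and ABCC3 also fell. SLC46A1, the proton-coupled carrier of the intestine, was at 72.5 and 78.8 CPM against 66.6 and 66.7 CPM, and SLC25A32, the mitochondrial carrier, at 46.9 and 42.6 CPM against 41.2 and 43.0 CPM, and neither passed. SLC25A32 overlaps DCAF13, which held 127.9% as many reads. Reads of FOLR1 per read of SLC19A1 went from 0.0895 and 0.128 to 0.382 and 0.341. The deposited FPKM scale is meant to allow for gene length. On it FOLR1 was at 8.92 and 14.38 against 29.96 and 33.15 for SLC19A1 with Ctrl shRNA. With STAT3 shRNA the values were 28.41 and 25.18 against 28.39 and 25.95. In FPKM the receptor lay below the carrier in the controls and level with it in the knockdown libraries.

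GGH, the hydrolase that shortens folate chains in the lysosome, and FPGS, the synthetase that builds them, moved apart in read counts. GGH (ENSG00000137563.12; chromosome 8, 63015079 to 63039171, minus strand) had 769 and 861 reads with Ctrl shRNA and 1462 and 1056 reads with STAT3 shRNA, or 40.8 and 45.0 CPM against 54.8 and 57.4 CPM. The log2 fold change was 0.39 ± 0.10 (SE), 1.31-fold higher. FPGS (ENSG00000136877.14; chromosome 9, 127794597 to 127814327, plus strand) was at 161 and 183 CPM against 142 and 143 CPM, a log2 fold change of -0.27 ± 0.09 (SE). Reads of GGH per read of FPGS were 0.254 and 0.246 with Ctrl shRNA and 0.386 and 0.402 with STAT3 shRNA, 1.58-fold higher.

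The direction of FPGS depended on the scale, while that of GGH did not. In deposited FPKM, FPGS was at 89.2 and 99.8 with Ctrl shRNA and 108 and 96.6 with STAT3 shRNA, so the groups overlapped, and the log2 difference was 0.11 with FPKM and 0.05 in read counts with a GC offset. FPGS is rich in GC, at 63.84% of its longest transcript, percentile 94.4 of the genes tested. Log2 fold changes over all genes ran against GC content, with a Spearman rho of -0.339 across 14545 genes, which are not independent replicates. GGH, at 46.98% GC, was at 42.9 and 47.5 FPKM against 58.0 and 61.1 FPKM. The deposited FPKM did not follow CPM alike for every gene. MTHFD1 was at 125 and 122 FPKM with Ctrl shRNA and 120 and 117 FPKM with STAT3 shRNA, and its CPM were 351 and 356 against 329 and 321. FPGS did not fall in FPKM, although its CPM were 161 and 183 against 142 and 143. A fixed length per gene would not give this, and how the FPKM were computed is not given.

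**Figure D2:**
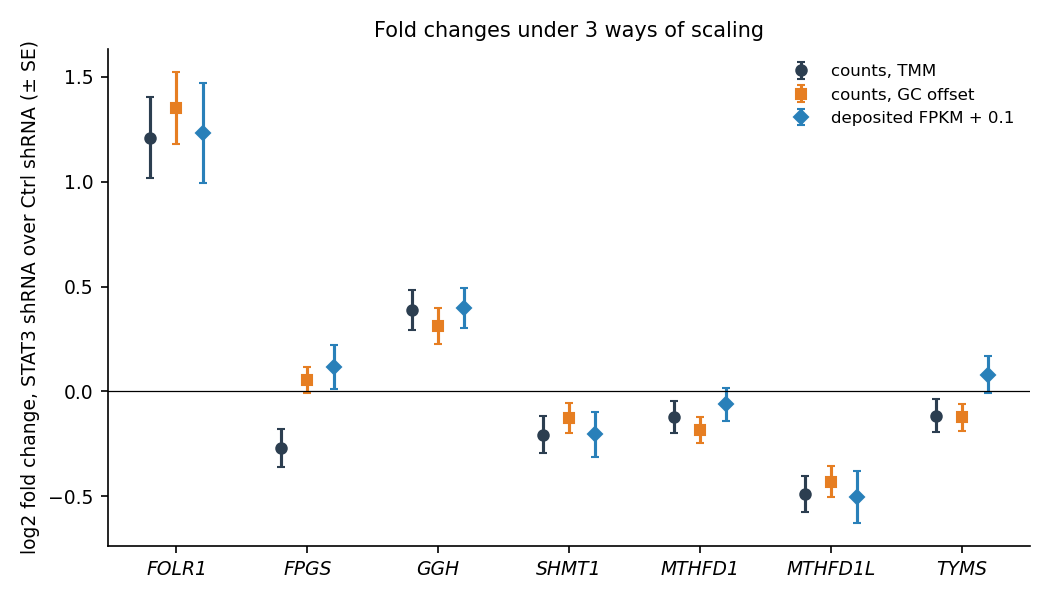
Log2 fold changes of STAT3 shRNA over Ctrl shRNA (± SE, 2 libraries a group) of 7 genes, FOLH1 left out for its size, from read counts with TMM factors (circles), read counts with a GC offset (squares) and deposited FPKM + 0.1 (diamonds). FOLR1, GGH, SHMT1, MTHFD1 and MTHFD1L kept their sign in all 3, FPGS was below 0 only in the first, and TYMS was above 0 only with FPKM.

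SHMT1, MTHFD1 and MTHFD1L handle the carbon units themselves. SHMT1 moves a carbon from serine to folate in the cytosol, MTHFD1 interconverts the oxidation states of cytosolic folate in a trifunctional protein, and MTHFD1L releases formate from mitochondria. MTHFD1L (ENSG00000120254.15; chromosome 6, 150865549 to 151101887, plus strand) had 1869 and 1758 reads against 1828 and 1245 reads, or 99.1 and 91.9 CPM against 68.6 and 67.7 CPM. It was the largest fall among the 8 genes in CPM, a log2 fold change of -0.49 ± 0.09 (SE), 1.40-fold lower. In FPKM it was at 41.8 and 38.6 against 31.1 and 25.8, also without overlap, but did not pass the threshold there. SHMT1 (ENSG00000176974.20; chromosome 17, 18327860 to 18363563, minus strand) was at 151 and 170 CPM against 143 and 135 CPM, a log2 fold change of -0.21 ± 0.09 (SE). MTHFD1 (ENSG00000100714.16; chromosome 14, 64388031 to 64463457, plus strand) was at 351 and 356 CPM against 329 and 321 CPM, a log2 fold change of -0.12 ± 0.08 (SE). Neither SHMT1 nor MTHFD1 passed the threshold. Reads of MTHFD1 per read of SHMT1 ran from 2.10 to 2.37 over all libraries with overlap between the groups, whereas reads of MTHFD1L per read of MTHFD1 went from 0.282 and 0.258 to 0.208 and 0.211. The 3′ end of SHMT1 overlaps SMCR8 on the other strand by 196 bases, and SMCR8 held 37.08% as many reads. Summing both genes gave -0.16.

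RefSeq promoter windows (GRCh38.p14, 250 bases before to 50 after a start) were at hand for 5 of the 8 genes, FPGS, SHMT1, MTHFD1, MTHFD1L and TYMS, with 10 windows in all. Since STAT3 is known to bind the palindrome TTCNNNGAA, both strands were searched for it. It occurred in the window of SHMT1 alone among the 5 genes, at positions -217 to -209 relative to the start, also as the stricter TTCCNGGAA, which the looser motif contains. Of all 35116 windows 7.66% held TTCNNNGAA and 1.15% held TTCCNGGAA. The stretch is shown for its place upstream of SHMT1, which did not pass the threshold (chr17:18363733-18363793, minus strand, 5′ to 3′, palindrome in capitals).
SHMT1 promoter: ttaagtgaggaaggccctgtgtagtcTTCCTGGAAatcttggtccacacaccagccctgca
A match of letters describes the sequence and does not show binding. The GC box GGGCGG, found in 45.0% of all windows, occurred in windows of FPGS, SHMT1 and MTHFD1L, and FPGS window 1 held it 9 times.

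Mitochondrial and cytosolic partners of these 3 enzymes changed in part. Of all genes tested, 16.8% rose and 18.7% fell. Of 8 tested mitochondrial genes, 1 rose and 2 fell, with a median of -0.11. ALDH1L2, which oxidises formyl folate in mitochondria, rose from 2.39 and 1.73 CPM to 4.28 and 4.78 CPM (log2 fold change 1.14 ± 0.27, adjusted p = 0.012, edgeR). Its call was lost with DESeq2 (adjusted p = 0.056), without either STAT3 shRNA library (0.0518 and 0.0916) and with FPKM, and it overlaps C12orf45, which held 732.9% as many reads. MTHFD2L fell by 0.53 ± 0.14 (adjusted p = 0.020) and SHMT2, the mitochondrial counterpart of SHMT1, by 0.29 ± 0.09 (adjusted p = 0.036) (log2, edgeR test). Both calls were lost without either STAT3 shRNA library and with FPKM, that of MTHFD2L also with DESeq2 and that of SHMT2 also with upper-quartile scaling and a GC offset. MTHFD2, the mitochondrial dehydrogenase of proliferating cells, was at 198 and 176 CPM against 199 and 213 CPM and did not pass. Of 3 tested cytosolic genes 2 fell, with a median of -0.51. MTHFS, which returns folinic acid to the active pool, fell from 34.5 and 40.3 CPM to 26.4 and 26.3 CPM (-0.51 ± 0.11, adjusted p = 0.008), a call lost without either STAT3 shRNA library (0.0711 and 0.0762).

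TYMS, thymidylate synthase and the target of fluorouracil, was the highest of the 8 genes in deposited FPKM in every library. TYMS (ENSG00000176890.16; chromosome 18, 657604 to 673578, plus strand) was at 195 and 192 FPKM with Ctrl shRNA and 198 and 212 FPKM with STAT3 shRNA. In CPM it was at 259 and 261 against 235 and 245, a log2 fold change of -0.12 ± 0.08 (SE) that did not pass the threshold, and FPKM gave the opposite sign, 0.08. ENOSF1 overlaps TYMS on the other strand by 3255 bases and held 31.68% as many reads. ENOSF1 was at 79.4 and 81.1 CPM against 76.5 and 78.6 CPM, and summing both genes gave -0.10. TYMSOS, a transcript divergent from the TYMS start with 289 reads in all, fell from 3.61 and 6.48 CPM to 2.40 and 1.79 CPM (log2 fold change -1.25 ± 0.33, adjusted p = 0.019, edgeR). In FPKM means with STAT3 shRNA the order was TYMS (205 ± 9.76, SD, n = 2), MTHFD1 (118 ± 1.46), FPGS (102 ± 8.09), SHMT1 (73.1 ± 5.49), GGH (59.5 ± 2.18), MTHFD1L (28.4 ± 3.75), FOLR1 (26.8 ± 2.28) and FOLH1 (9.29 ± 2.16). MTHFD1L and FOLR1 were not apart beyond their spread. With Ctrl shRNA the order was the same, FOLR1 lay well below MTHFD1L, and FPGS and SHMT1 were the neighbours that overlapped.

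**Figure D3:**
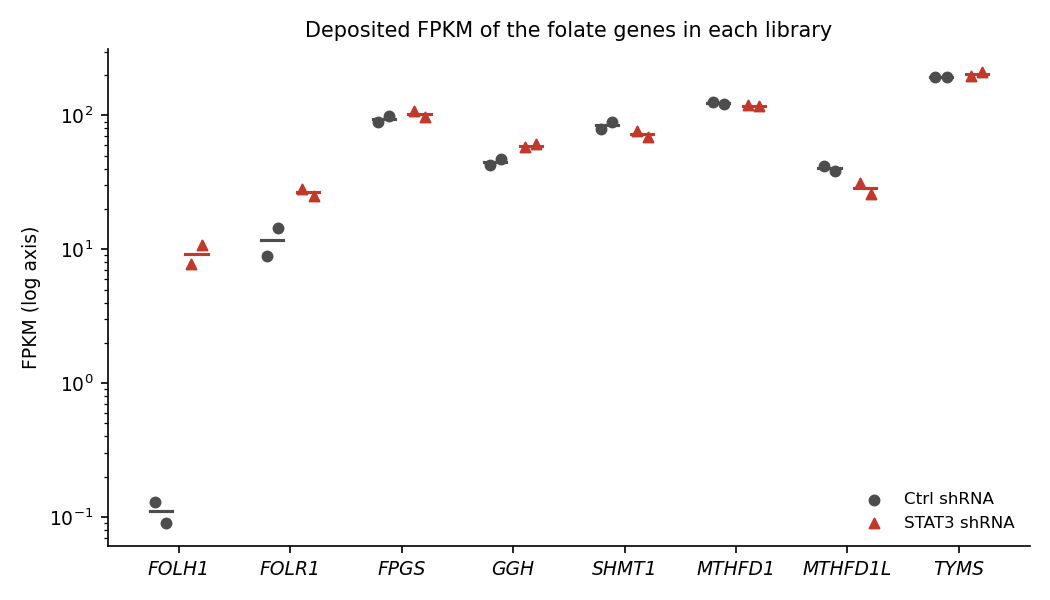
Deposited FPKM of the 8 genes (log axis) in each library, Ctrl shRNA as circles and STAT3 shRNA as triangles, with lines at the group means. TYMS is highest and FOLH1 lowest in every library, and FPGS is the gene whose groups overlap.

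Of 6 tested genes that supply or use thymidylate, 2 fell and 0 rose, where 18.7% and 16.8% of all genes tested did. DTYMK, the kinase that acts after TYMS, fell from 95.5 and 104.6 CPM to 50.1 and 50.2 CPM (-0.996 ± 0.09). DUT, which makes the substrate of TYMS, showed a log2 difference of -0.25 ± 0.08 (edgeR, adjusted p = 0.042), which became 0.09 with FPKM and lost its call with the replicate number as a block (0.0525), with upper-quartile scaling (0.0873) and without either STAT3 shRNA library. TK1, the salvage kinase, was at 221 and 256 CPM against 232 and 235 CPM, with overlap.

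The pathways that draw on folate showed falls in some genes and 0 rises, where 18.7% of all genes tested fell and 16.8% rose. In purine synthesis 4 of 11 tested genes fell (median -0.14). PFAS fell from 222 and 210 CPM to 163 and 157 CPM (-0.43 ± 0.08, adjusted p = 0.004) and ATIC, which uses a folate carbon directly, from 180 and 172 CPM to 135 and 127 CPM (-0.42 ± 0.08, adjusted p = 0.005). The call for PFAS was lost without either STAT3 shRNA library (0.0509 and 0.082), that for ATIC without STAT3 shRNA library 2 (0.106), and both with FPKM. ADSSL1, known from muscle, fell by 0.95 ± 0.14 on the log2 scale (adjusted p = 0.001, edgeR; lost with FPKM, 0.0718 and 0.0711), and GART, the other enzyme that uses a folate carbon, was at 245 and 222 CPM against 223 and 218 CPM and did not pass. GART overlaps SON, which held 134.1% as many reads. In the methionine cycle 1 of 6 fell (median 0.08). This was AHCY, which clears S-adenosylhomocysteine, from 333 and 387 CPM to 224 and 225 CPM (-0.68 ± 0.09, adjusted p = 0.001). MTR, methionine synthase, was at 72.9 and 64.8 CPM against 79.6 and 77.7 CPM and did not pass. Of 8 tested genes of cobalamin handling, only some of which serve the cofactor of MTR, 3 fell (median -0.09). MMADHC fell by 0.57 ± 0.09, MMAB by 0.56 ± 0.10 and CD320, the cobalamin receptor, by 0.56 ± 0.11 on the log2 scale (adjusted p = 0.002, 0.004 and 0.004, edgeR). MMAB overlaps MVK, which held 78.6% as many reads. The calls for MMAB and CD320 were lost with FPKM (0.0535 to 0.0544 and 0.0528 to 0.054), and that for CD320 without STAT3 shRNA library 1 (0.0505).

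**Figure D4:**
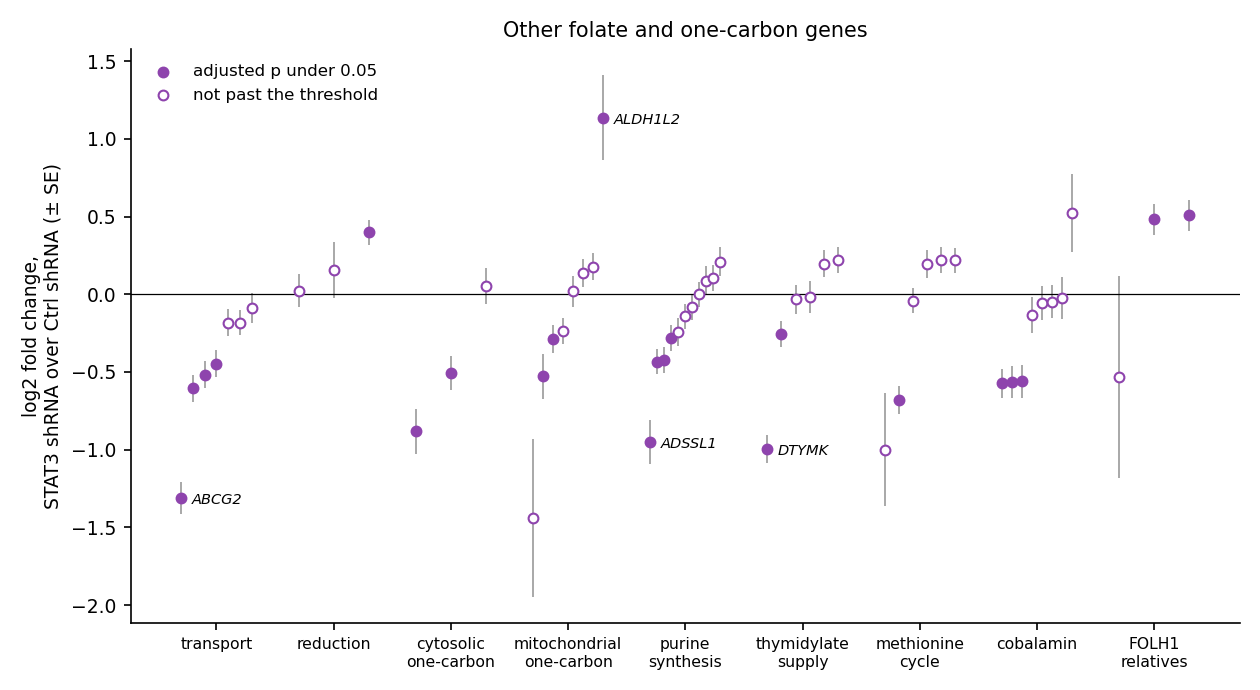
Log2 fold changes (± SE, 2 libraries a group) of 55 tested folate and related genes other than the 8, grouped by role, filled where the adjusted p was under 0.05 in the edgeR test. Filled points below 0 outnumber those above 0 by 18 to 4, and the range runs from AMT, which did not pass, and ABCG2 at the low end to ALDH1L2 at the high end.

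Over the 9 lists, 65 genes besides the 8 had a row and 55 were tested. Of these 4 rose, 18 fell and 33 did not pass, where 16.8% of all genes tested rose and 18.7% fell. Among the 4, TFRC and TFR2 were listed as relatives of FOLH1, not for a role in folate metabolism. The median log2 fold change was -0.09 against 0.02 over all genes tested. That median was 0.000541 with log2(FPKM + 1) and 0.000605 with log2(FPKM + 0.1). FOLR2, DMGDH, MAT1A, BHMT and FOLH1B had no row. The split was 7 higher and 15 lower with upper-quartile scaling, 3 and 7 with log2(FPKM + 1) and 11 and 24 without Ctrl shRNA library 1. The calls for ABCG2, ABCC4, DTYMK, AHCY, MMADHC and TFRC held under every alternative run.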

How the data were processed

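The authors deposited read counts per gene and FPKM per gene for 4 libraries (2 Ctrl shRNA, 2 STAT3 shRNA), per the file headers. Which aligner, build, annotation, kit and strand setting was used is not given in the sources used here. The gene length behind the FPKM is not given either. Columns named "Si" were taken as STAT3 shRNA, since the other columns match the Ctrl titles by name. The members and gene lists were chosen with earlier results of these data known. The test on counts was that of edgeR 4.0.16 (R 4.3.3; TMM factors 0.951 to 1.04; filterByExpr, 15199 genes; quasi-likelihood test with group as the only term; Benjamini-Hochberg over all genes, threshold 0.05) after a check on simulated data. CPM are TMM-scaled, and 3 reads equal 0.113 to 0.163 CPM. Replicate libraries differed beyond sampling noise (chi-square per degree of freedom 13.9 and 4.2). Positions are from GENCODE 29, in which 25996 of 26420 Ensembl IDs were found. Copies were sought with BLAST 2.17.0. In each list the 3 called genes with the smallest p were named, with genes that a member needs for comparison; ABCC3, SLC46A1, SLC25A32, MTHFD2, TK1, GART and MTR were named beside them after their values were seen. Results for a few genes the rule selects are left out here. Alternatives were RLE and upper-quartile scaling, 2 other filters, a replicate block, leaving out each library, DESeq2 1.42.0, limma-trend (limma 3.58.1) on log2(FPKM + 1) and log2(FPKM + 0.1), a GC offset and sums over overlapping genes or copies, of which the sums with SMCR8 and MTHFD1P1 were chosen after seeing the data.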

Additional observations from a re-analysis of the deposited data

How the results depend on the processing

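Of all genes tested 5396 changed, 2535 with log2(FPKM + 1), 2494 with log2(FPKM + 0.1) and from 2527 to 7291 when 1 library was left out. Of the folate genes besides the 8, 22 changed, 10 and 9 with the FPKM fits, and from 11 to 35 when 1 library was left out. The cause was not tested. For FOLH1 the log2 fold change of 6.68 was 3.20 and 5.47 with the FPKM fits, where the pseudocount bounds it, 6.55 with the GC offset and 6.62 to 6.73 when 1 library was left out. FPGS turned from -0.27 to 0.114 and 0.115 with FPKM and to 0.0549 with the GC offset, and DUT from -0.25 to 0.0871 and 0.0876 with FPKM. Over 259 alternatives of the 20 named pathway genes 212 kept direction and call, 45 lost the call and 2 turned.

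The titles do not say that a number marks a shared culture or day, so the numbers were not taken to pair libraries. Deviations of same-numbered libraries from their group means had a correlation of -0.024 over genes. With 2 libraries a group the second pair mirrors the first, so this value cannot decide whether libraries were paired. With the replicate block 5447 genes changed, 23 of them folate and related genes. There the call of DUT was lost, and FOLH1 had a log2 fold change of 6.68. A group of 2 libraries and 6 reads of FOLH1 in the controls limit the precision, and the parts of strand and of FOLH1B reads were not tested.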
